A study of Rattus norvegicus with 112 samples.

Results

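Gene expression 24 h after a 30 min pulse of NMDA was measured in primary cultures of rat cortical neurons on Affymetrix arrays. The comparison takes 8 of the 112 arrays of the series: 4 arrays of cultures given 1 mM NMDA for 30 min, washed and harvested 24 h later, against 4 control arrays given NMDA for 0 min. Each pulsed array was matched to the control that carries the same culture label, and the 4 labels are called cultures 1 to 4 here. Both groups share the rat cortical neurons of the same culture labels and received no other agent that the labels name. The series also holds pulses of 10 and 60 min from the same cultures, a washed-out experiment with the same 30 min pulse in separate samples, and cultures harvested while still in NMDA. The pulsed array of culture 1 is named as 30 min in its title and its description but carries 60 min in a further label field. Its title was followed. The calls that held without it are listed below, with values for Fos, Junb, Crem and Igf1.

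NMDA is a selective agonist of the glutamate receptors that bear its name. These receptors are ligand-gated channels that let calcium enter the neuron, and calcium entry drives kinases that act on CREB, SRF and other transcription factors already present in the cell. A first wave of genes, among them the Fos, Jun and NR4A families of transcription factors, is known to be transcribed within minutes of such a stimulus, and a later wave includes secreted proteins such as BDNF. Strong or long activation of the same receptors can kill neurons, which is called excitotoxicity.

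Each array read 1322 probe sets, 59 of them controls, and 884 of the remaining 1263 were bright enough to be tested. Signals are linear intensities that the submitters had scaled to a common mean, so that the trimmed mean of each array of the pulse run lay between 2510.0 and 2513.3. Differences are on the scale of log2(signal + 63.1), an offset that understates the change of dim probe sets. None of the 8 arrays stood apart from the others of the run. Pulsed arrays of 10 min (culture 3) and 60 min (culture 4) did, with median correlations of 0.63 and 0.74 with the rest, and both share the fit that sets the spread. The ratio of 3′ to 5′ GAPDH signal, a measure of RNA quality, was 1.36 to 1.75 in the controls and 1.22 to 1.64 after the 30 min pulse. It was 2.61 in the 10 min array and 12.3 in the 60 min array that stood apart. Precision is limited by the number of arrays: the 95% interval of a difference reached a median of 0.82 to either side. Whether the cultures were prepared independently is not stated, and cultures 3 and 4 share a date, so the p-values measure the spread between these samples.

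The pulse left a small set of probe sets higher 24 h later, and many of them belong to genes that neuronal activity is known to induce. Of the 884 probe sets, 20 passed the test (adjusted p under 0.05, limma with culture as a block), which is 2.26% of those tested, and all 20 were higher after the pulse. They stand for 12 named genes and 1 probe set with no gene. By role these are the transcription factors Fos, Junb, Crem, Nr4a1 and Nr4a3, the secreted proteins Bdnf, Igf1 and Nptx2, the neuropeptide precursors Penk and Sst, and the receptors Il6r and Adrb1. Their differences ran from 1.29 to 2.94 with a median of 1.96, while the median over all 884 was -0.06. All 20 were higher in 4 of 4 cultures, which held for 9.05% of all probe sets tested. In 18 of the 20 the lowest pulsed array lay above the highest control array, against 3.28% of all probe sets.

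No probe set passed as lower, although 19 of the 59 probe sets with an unadjusted p under 0.05 in limma were lower. Without the pair of arrays that stand apart, which belong to neither group, 43 passed, 31 of them higher (3.51%) and 12 lower (1.36%), and the 20 were all among them. Without the pulsed array of culture 1, whose label is in conflict, 8 probe sets passed, all from among the 20. These were 3 of Fos, 3 of Bdnf and 1 each of Nr4a1 and Igf1. Junb, Crem, Nr4a3, Nptx2, Penk, Sst, Il6r and Adrb1 did not pass without that array. Without the culture term the count was 12. In this bulk RNA, a change in the number of cells of a type and a change in RNA per cell cannot be told apart.

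**Figure D1:**
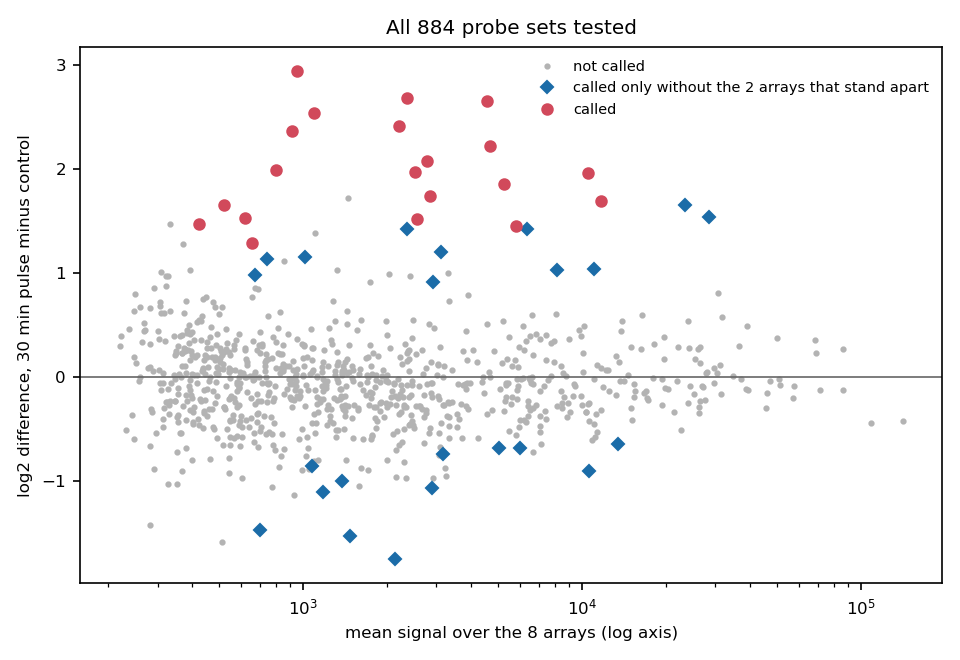
Difference between the 30 min pulse and its controls (log2, vertical) against the mean signal of the 8 arrays (log axis) for each of the 884 probe sets tested. The 20 probe sets that passed lie between 1.29 and 2.94, and diamonds mark the 23 that passed only without the pair of arrays that stand apart, 12 of which lie below 0.

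Fos, which pairs with Jun proteins to form the AP-1 transcription factor, gave the most significant difference. On its probe set X03347cds_g_at the controls of cultures 1 to 4 read 2298, 1024, 632 and 1006, and the pulsed arrays read 13607, 6524, 4828 and 6633. Every pulsed array lay above every control array, and culture 1 was the brightest on both sides. The log2 difference was 2.65 (SE 0.29, limma adjusted p = 0.000143), and it was 2.62 without the pulsed array of culture 1 (adjusted p = 0.00203). The other probe sets of the gene, X06769cds_at and X06769cds_g_at, differed by 2.41 (SE 0.30) and 1.96 (SE 0.25), so the 3 measurements of Fos moved the same way.

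Junb, another AP-1 partner, read 2065, 1511, 447 and 1490 in the controls and 5356, 3631, 2444 and 3468 after the pulse. The groups did not overlap, and the difference was 1.52 (SE 0.34, limma adjusted p = 0.0224). It did not pass without the pulsed array of culture 1, where it was 1.53 (adjusted p = 0.0808). Jun itself missed the threshold, at 1.15 (SE 0.30, adjusted p = 0.0573), with pulsed signals of 1824, 1648, 915 and 1289 against 755, 407, 811 and 453. Its groups did not overlap either, and in culture 3 the gap was small.

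The orphan nuclear receptors of the NR4A family act as transcription factors without a known ligand. Nr4a1 read 1335, 1675, 1348 and 2150 in the controls on U17254_g_at and 9022, 6561, 8802 and 6608 after the pulse. The groups were far apart, with a difference of 2.22 (SE 0.38, limma adjusted p = 0.00372), and its probe set U17254_at gave 1.97 (SE 0.40). Nr4a3 read 2263, 3161, 4039 and 3029 against 8254, 7920, 9263 and 8502. Its difference was 1.45 (SE 0.34, adjusted p = 0.0318), while its other probe set X86003_at gave 0.73 (SE 0.31) and did not pass.

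Crem encodes members of the CREB family, among them a short repressor, ICER, that is made from a promoter inside the gene and acts on cAMP response elements. Its controls read 2160, 778, 490.0 and 1144, and the pulsed arrays 4665, 4255, 3907 and 4814. The pulsed values were close to one another whereas the controls spread widely, with culture 1 highest. The difference was 2.08 (SE 0.44, limma adjusted p = 0.0183), and 2.12 without the pulsed array of culture 1 (adjusted p = 0.0623).

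Since several of these genes are known targets of CREB and AP-1, their promoter windows are shown. RefSeq windows on GRCr8, from 250 bases before a start to 50 after it, were found for 9 of the 12 genes, and not for Fos, Nr4a3 and Penk. Both strands were searched for 5 motifs. These were TGACGTCA (the full cAMP response element), TGACG (its core, which each full element holds on both strands), TGANTCA (the AP-1 site), AAAGGTCA (the site of NR4A monomers) and GCGTGGGCG (the EGR site). The full element was in the windows of 2 of the 9, Crem and Sst, against 2% of all 27457 genes with a window. The core was in 8 of the 9 genes, against 23% of all genes. An AP-1 site was in 1 window of Bdnf, against 8.04% of genes, and neither the NR4A site (1.49% of genes) nor the EGR site (0.605%) was in any. Bdnf has 6 windows and Crem 3, which gives them more room for a match, and the median GC content was 55.3% in the 16 windows against 51.7% in all 33469. The part of GC content in these shares was not tested.

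The 250 bases before each of the internal starts of Crem, at chr17:58984547-58984796 and chr17:58985240-58985489, both lie within the gene (chr17:58932011-59001160). Capitals mark motif matches, and the full elements begin 56 and 35 bases before the starts. The 250 bases before the starts of Nr4a1 (chr7:134259888-134260137) and Junb (chr19:40080876-40081125) follow, with 4 core matches in Nr4a1 and 1 in Junb. All 4 stretches are on the plus strand.
Crem, first internal start: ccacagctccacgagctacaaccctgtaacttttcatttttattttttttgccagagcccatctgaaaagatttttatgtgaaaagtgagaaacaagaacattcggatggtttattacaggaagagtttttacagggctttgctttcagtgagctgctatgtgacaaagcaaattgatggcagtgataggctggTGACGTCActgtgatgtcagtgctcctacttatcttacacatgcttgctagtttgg
Crem, second internal start: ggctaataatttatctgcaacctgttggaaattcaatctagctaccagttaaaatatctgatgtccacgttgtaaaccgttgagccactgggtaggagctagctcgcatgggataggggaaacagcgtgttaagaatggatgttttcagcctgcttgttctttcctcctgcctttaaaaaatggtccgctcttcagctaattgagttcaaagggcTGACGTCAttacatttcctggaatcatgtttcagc
Nr4a1: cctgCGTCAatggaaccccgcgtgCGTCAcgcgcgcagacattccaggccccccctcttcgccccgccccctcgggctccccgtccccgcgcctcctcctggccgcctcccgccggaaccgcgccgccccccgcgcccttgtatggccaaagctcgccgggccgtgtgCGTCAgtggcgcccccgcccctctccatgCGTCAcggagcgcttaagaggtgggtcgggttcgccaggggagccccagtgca
Junb: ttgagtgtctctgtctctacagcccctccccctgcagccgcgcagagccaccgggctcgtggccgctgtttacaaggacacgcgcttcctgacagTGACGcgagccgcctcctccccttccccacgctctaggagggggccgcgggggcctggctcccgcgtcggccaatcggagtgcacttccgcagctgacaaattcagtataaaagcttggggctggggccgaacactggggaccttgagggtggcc

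The list of activity-induced transcription factors held 9 tested genes, each taken by its brightest probe set. Like the other lists, it was chosen with earlier results of these data known. Of the 9 genes, 5 rose, against 2.26% of all probe sets tested. All 9 differences were positive with a median of 1.52, against -0.06 over all probe sets tested and 390 positive differences among 884. The 4 that did not pass were Jun, Fosl2 at 1.72 (adjusted p = 0.31), Egr1 at 0.58 and Fosl1 at 0.03. Egr1, a zinc finger factor of the first wave, was higher in 3 of 4 cultures.

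**Figure D2:**
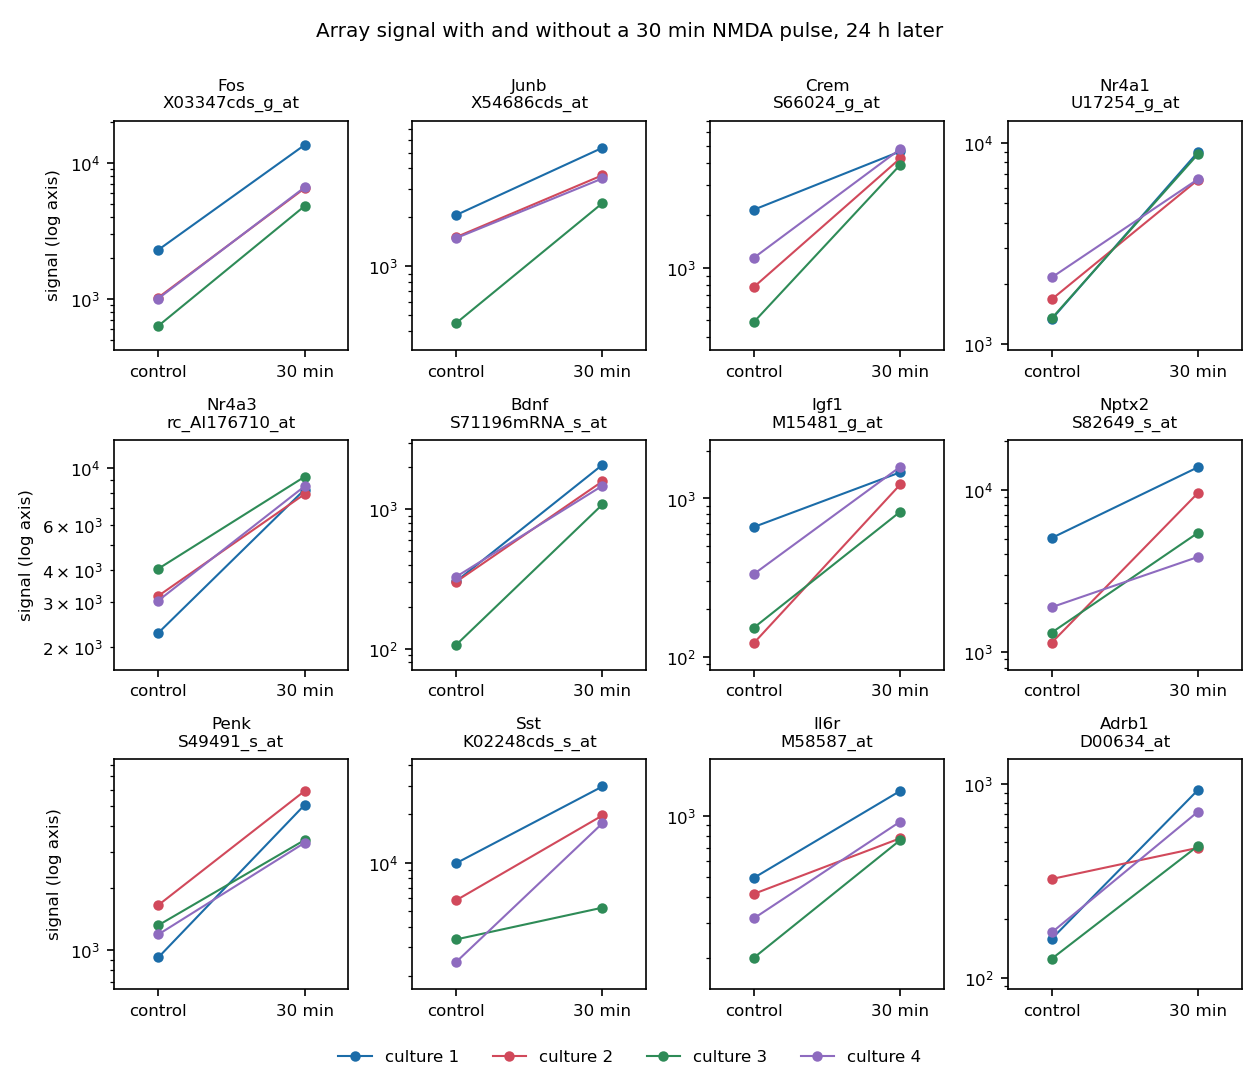
Signal (log axis, separate for each panel) of the 12 named genes that passed, each on the probe set with its smallest adjusted p, in control cultures and after the 30 min pulse. Each line joins the control and the pulsed array of 1 culture; all 48 lines go up, and the groups overlap for Nptx2 and Sst.

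Bdnf, the neurotrophin that signals through the TrkB receptor and supports survival and synaptic plasticity, had the largest differences. On rc_AI030286_s_at the controls read 253, 202, 287 and 20.2, and the pulsed arrays 2450, 1873, 1188 and 1316. That is a difference of 2.94 (SE 0.41, limma adjusted p = 0.000484). On the brighter D10938exon_s_at the controls read 1122, 402, 436 and 522 and the pulsed arrays 5563, 4566, 2990 and 3324, with no overlap and a difference of 2.68 (SE 0.37). S76758_i_at, S71196mRNA_s_at and X67108_at passed at 2.54, 2.36 and 1.66. A further pair of Bdnf probe sets, S76799_at and S71201mRNA_at, differed by 0.28 (SE 0.31) and 0.04 (SE 0.53), and their groups overlapped. The rat gene is transcribed from several promoters into transcripts with different first exons. Which transcripts each probe set reads was not determined here.

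One RefSeq window of Bdnf holds a core match 35 bases before its start, on the minus strand. It is shown with those of Nptx2, Adrb1 and Il6r, as 60 bases around the match: Bdnf at chr3:116637795-116637854 and Adrb1 at chr1:265776987-265777046, both on the plus strand, Nptx2 at chr12:15162104-15162163 and Il6r at chr2:177645343-177645402, both on the minus strand. Capitals mark the core.
Bdnf: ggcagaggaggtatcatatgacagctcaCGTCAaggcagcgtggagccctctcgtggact
Nptx2: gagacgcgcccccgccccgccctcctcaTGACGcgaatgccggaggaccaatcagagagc
Adrb1: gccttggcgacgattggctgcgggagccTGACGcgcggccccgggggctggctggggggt
Il6r: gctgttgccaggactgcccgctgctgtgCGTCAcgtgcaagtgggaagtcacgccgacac

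Igf1, a secreted growth factor that acts through its own receptor tyrosine kinase, read 662, 123, 154 and 335 in the controls on M15481_g_at and 1462, 1225, 826 and 1583 after the pulse. No pulsed array fell as low as the highest control, that of culture 1. The difference was 1.99 (SE 0.34, limma adjusted p = 0.00372), and it passed without the pulsed array of culture 1 as well (2.13, adjusted p = 0.00972). The call rests on 1 probe set: M15481_at gave 0.28 (SE 0.49) and X06107_r_at gave -0.02 (SE 0.32), with overlapping groups on both. D00698_s_at and X06107_i_at were too dim to test. Their mean signals were 36.7 and 30.0 in the controls and 186.6 and 74.0 after the pulse.

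Nptx2 encodes a pentraxin that is secreted at excitatory synapses and clusters AMPA receptors. Its controls read 5047, 1144, 1319 and 1891 on S82649_s_at, and the pulsed arrays 13764, 9570, 5434 and 3856. The groups overlapped, because the control of culture 1 was brighter than the pulsed array of culture 4, while within each culture the pulsed array was higher. The difference was 1.86 (SE 0.39, limma adjusted p = 0.0181), and without the culture term it did not pass (adjusted p = 0.191). Its other probe set S82649_r_at gave 0.99 (SE 0.48, adjusted p = 0.723).

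Of the 7 tested genes in the list of activity-induced effectors, 3 rose (Bdnf, Nptx2 and Igf1), against 2.26% of all probe sets tested. All 7 were higher in 4 of 4 cultures, against 9.05% of all probe sets, and their median was 1.65. Vgf, the precursor of several secreted peptides, stood just outside the threshold at 1.65 (SE 0.42, limma adjusted p = 0.0523). Its controls read 21650, 3572, 20104 and 7319, and its pulsed arrays 43065, 31030, 36548 and 23349, without overlap. The remaining members, the plasminogen activator Plat at 0.97, the prostaglandin synthase Ptgs2 at 0.55 and the synaptotagmin Syt4 at 0.29, had adjusted p of 0.72 or more.

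Neuropeptide precursors were the third group with members that rose. Penk, the precursor of the enkephalin opioid peptides, read 921, 1656, 1321 and 1191 in the controls on S49491_s_at and 5087, 5945, 3433 and 3328 after the pulse. The groups were well apart, at a difference of 1.74 (SE 0.34, limma adjusted p = 0.00976). A dimmer Penk probe set, rc_AI009300_at, gave -0.20 (SE 0.47) with overlapping groups. Sst, the precursor of somatostatin and a marker of a class of inhibitory interneurons, read 9921, 5845, 3346 and 2424 on K02248cds_s_at and 29625, 19603, 5262 and 17525 after the pulse. Culture 3 stood out with a small step, and the groups overlapped. The difference was 1.69 (SE 0.37, adjusted p = 0.0210), it did not pass without the culture term (adjusted p = 0.492), and the probe set M25890_at gave 1.53 (SE 0.73, adjusted p = 0.723).

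The full cAMP response element of Sst lies at its RefSeq start on chr11:90461537-90461566, plus strand, and is shown in capitals within 30 bases.
Sst: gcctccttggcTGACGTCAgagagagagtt

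All 10 tested genes of the neuropeptide list had positive differences, with a median of 0.76. Of these, 7 were higher in 4 of 4 cultures, against 9.05% of all probe sets tested. By its brightest probe set 1 of the 10 passed (Penk), against 2.26% of all probe sets, and Sst passed by its second probe set. Among those that did not pass, Crh, the stress peptide of the hypothalamus, was at 0.98 (adjusted p = 0.31), Tac1, the precursor of substance P, at 0.79 and Pdyn, the dynorphin precursor, at 0.73. The second probe set of Tac1 gave 1.14 (SE 0.30, adjusted p = 0.0757), without overlap between groups. Sst, Penk and Tac1 mark subtypes of neurons, and the share of these neurons in each culture was not measured.

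A pair of receptors completed the named genes. Il6r, the receptor for interleukin 6, read 497, 415, 202 and 315 in the controls and 1327, 777, 762 and 938 after the pulse. Its difference was 1.29 (SE 0.27, limma adjusted p = 0.0152) without overlap. Adrb1, the beta-1 adrenergic receptor, which raises cAMP, read 159, 323, 125 and 171 against 932, 468, 479 and 719, with a difference of 1.47 (SE 0.34, adjusted p = 0.0318). These are dim signals, and in culture 2 the step of Adrb1 was the smallest. Adrb1 was also the only one of the 20 that did not pass when the 8 arrays were fitted alone (adjusted p = 0.0591). The unnamed probe set AF030088UTR#1_at read 360, 49.99, 367 and 375 in the controls and 1912, 513, 596 and 772 after the pulse, with a difference of 1.53 (SE 0.37, adjusted p = 0.0386).

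No difference was resolved in the receptors that NMDA acts on. All 7 measured genes of the NMDA receptor list were tested, and none passed. Grin1 was at 0.36 (SE 0.38), Grin2a at -0.27 (SE 0.58), Grin2b at 0.02 (SE 0.31) and Grin2c at -0.26 (SE 0.30). Grin2d was at 0.22 (SE 0.35) and Grin3a at 0.00 (SE 0.49). Grina, which is on the list but does not encode a channel subunit of the receptor, was at -0.03 (SE 0.34). Grin1 encodes the subunit that every NMDA receptor needs, and its 95% interval ran from -0.45 to 1.16. The interval of Grin2b, a subunit prominent in young cortical neurons, ran from -0.64 to 0.67. For 5 of these genes, Grin1, Grin2a, Grin2b, Grin3a and Grina, the sign changed when 1 array was left out or under another setting.

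Other glutamate receptors lay mostly below 0 without passing. Of 6 metabotropic receptors tested, 5 had negative differences, as had 494 of all 884 probe sets. The list's median was -0.70, beside -0.22 and -0.42 after the 10 and 60 min pulses. In the washed-out experiment it was 0.004 in the first run and -0.002 in the repeat run. Here and in the lists below, the repeat run includes its controls 3 and 4, which stood apart from that run. After the 30 min pulse here Grm3 was at -0.97, Grm7 at -0.85, Grm5 at -0.80, Grm4 at -0.59 and Grm6 at -0.23. Grm2, an autoreceptor that restrains glutamate release, was at 0.85. Grm7, a presynaptic receptor, read 1401, 1446, 1064 and 1678 in the controls and 603, 773, 679 and 929 after the pulse, which is lower without overlap (as were 3.17% of all probe sets), yet its adjusted p was 0.388 in limma. Without the arrays that stand apart it passed at -0.85 (adjusted p = 0.0361). AMPA and kainate receptor genes had 0 of 8 past the threshold and a median of -0.25, with Gria1, an AMPA receptor subunit, at -0.89 (adjusted p = 0.81 in limma). Their median in the washed-out experiment was -0.14 in the first run and -0.24 in the repeat run.

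Of the genes of synaptic release and adhesion, 7 of 16 were lower in 4 of 4 cultures, against 13.3% of all probe sets tested. None passed, and the median was -0.33, beside -0.48 and -0.30 after the 10 and 60 min pulses. In the washed-out experiment it was 0.02 in the first run and 0.05 in the repeat run. Among the 7 lower in 4 of 4 cultures were the calcium sensor Syt6 at -1.03, Nrxn3 at -0.70, Syn2 at -0.54, Nrxn2 at -0.52 and Snap25 at -0.33. Sodium and calcium channel genes had a median of -0.27, and Scn2a, a main axonal sodium channel, stood at -0.95 (adjusted p = 0.23). Postsynaptic scaffold and calcium signalling genes had a median of -0.20, GABA and glycine genes -0.08 and potassium channels 0.00, with none of 15, 17 and 19 past the threshold.

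The lowest single values belonged to genes that did not pass in the fit of all 16 arrays. Rnf112, a RING finger protein of the brain, differed by -1.75 (adjusted p = 0.23), with a control of 477 in culture 1 against 3371, 4232 and 4994 in the others. Slc1a6, a glutamate transporter, was at -1.58 (adjusted p = 0.126). Ptk2b, a calcium-activated tyrosine kinase, read 904, 1536, 949 and 863 in the controls and 386, 321, 230 and 424 after the pulse, at -1.47 (adjusted p = 0.0942). Atp2b2, a calcium pump of the plasma membrane, read 1708, 1855, 1095 and 1814 against 439, 723, 717 and 1074, at -1.10 (adjusted p = 0.0885). For both, every pulsed array lay below every control array. The values of Ptk2b and Atp2b2 are from 1 probe set each. Other probe sets of both genes were tested, and their values are not given here. Without the arrays that stand apart, Rnf112, Ptk2b and Atp2b2 were among the 12 that passed as lower (adjusted p = 0.0182, 0.0341 and 0.020), beside Grm7, Slc1a1, Tagln3, Nrxn2, an unnamed probe set, and 2 of the 4 tested probe sets each of Tubb5 and Hrk. For Nrxn2 this was not its brightest probe set, M96376_at, whose -0.52 is given above and which did not pass.

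In the list of cell death and survival genes 0 of 15 passed and the median was -0.11. Hrk, a BH3-only protein that promotes apoptosis, was the exception in size: it read 1858, 1859, 2532 and 1740 in the controls and 411, 179, 2412 and 822 after the pulse. That is a difference of -1.53 (SE 0.51, adjusted p = 0.23), with culture 3 nearly level, and rc_AI102299_s_at gave -1.001 (SE 0.30, adjusted p = 0.154). Without the arrays that stand apart these 2 of its 4 tested probe sets passed (limma adjusted p = 0.0238 and 0.0198), while rc_AA925846_s_at and E13573cds_s_at, at -1.05 and -0.54 with all arrays, did not (adjusted p = 0.18 and 0.553). The caspases Casp1, Casp2 and Casp6 stood at 0.08, -0.36 and -0.37, the survival gene Bcl2 at -0.06 and Bax, which opens the mitochondrial membrane, at 0.08.

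Among stress and inflammation genes Il6r alone passed. None of 9 stress genes passed, with the metallothionein Mt1 at 0.81 and the heme oxygenase Hmox1 at 0.54, both higher in 4 of 4 cultures. Of 13 inflammation genes 1 passed (Il6r), and 11 were positive with a median of 0.33. Ccl2, the chemokine MCP-1, read 2348, 4976, 3112 and 2265 in the controls on X17053cds_s_at and 7645, 19491, 5280 and 5740 after the pulse, without overlap. It missed the threshold at 1.43 (SE 0.40, adjusted p = 0.104), as did its brighter probe set X17053mRNA_s_at, which stands for it in the list, at 1.03 (SE 0.33, adjusted p = 0.218). Both passed once the arrays that stand apart were dropped (adjusted p = 0.00246 and 0.00569). In the cAMP and CREB list 2 of 8 rose, Crem and Adrb1, while Creb1 stood at 0.12; over all probe sets tested the share was 2.26%. The neurotrophic list had 2 of 17, Bdnf and Igf1, which like Crem also belong to lists of activity-induced genes, with the BDNF receptor Ntrk2 at -0.12 and the IGF receptor Igf1r at -0.92 (adjusted p = 0.78).

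**Figure D3:**
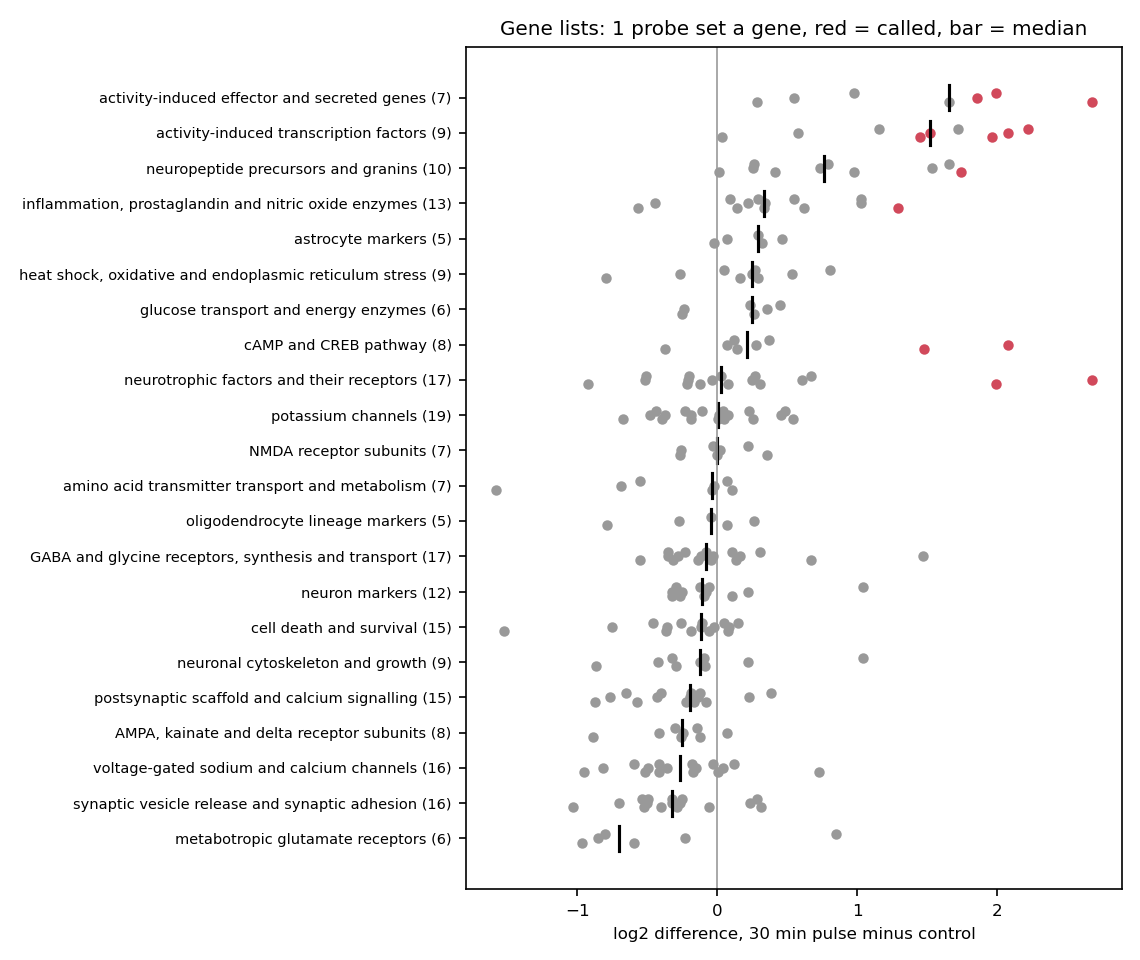
Difference between the 30 min pulse and its controls (log2) for the genes of each list with 4 or more tested members, 1 point a gene by its brightest probe set. Red points passed the test, bars are medians, and the number tested is in brackets; the medians run from 1.65 for activity-induced effectors to -0.70 for metabotropic glutamate receptors.

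Cell type markers were checked against the label of cortical neurons. Neuron markers had a summed signal between 210800 and 257372 in the controls and between 174157 and 236915 after the pulse, and 0 of 12 passed, with a median of -0.11. Of these 12 genes, 9 had negative differences and 3 positive, while 494 of all 884 probe sets were negative. Eno2, Syp, Snap25 and Gap43 were lower in 4 of 4 cultures, against 13.3% of all probe sets. Only Nefl was higher in 4 of 4. This neurofilament was the highest of the neuron markers at 1.04 (SE 0.55, limma adjusted p = 0.79), with pulsed arrays of 12876, 18713, 12129 and 15981 above controls of 8650, 5112, 7978 and 7215. It passed without the arrays that stand apart (adjusted p = 0.00798). Astrocyte markers summed to between 30091 and 44879 in the controls and to between 31948 and 55231 after the pulse, with 0 of 5 past the threshold and a median of 0.29. Oligodendrocyte markers ranged from 3992 to 14888 in the controls and from 5293 to 10873 after the pulse, again with 0 of 5. The single microglial marker on the array was too dim to test, and no proliferation gene of the list was on it. Any part of other cells in the 20 differences was not tested.

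Pulse length made no difference that passed. The 10, 30 and 60 min pulses share their 4 control arrays, so their differences from control are not independent, and the 30 min arrays were also set against the 10 and 60 min arrays directly. In limma 0 of 884 probe sets passed either way, with 15 and 13 at an unadjusted p under 0.05. The 10 and 60 min groups each hold an array that stood apart, and these entered the contrasts. The smallest p belonged to Ltbp3, a protein that binds latent TGF-beta, higher after 30 min than after 10 min by 1.60 (95% interval 0.78 to 2.42, adjusted p = 0.76), followed by the kinase Pnck at 1.51 and Glul, glutamine synthetase, at 1.02. Against 60 min these were the transporter Slco1a4 at 1.26 (95% interval 0.45 to 2.07, adjusted p = 0.995), the vesicular GABA transporter Slc32a1 at 0.92 and the nicotinic receptor subunit Chrna7 at 1.10.

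For the 20 probe sets the medians against control were 2.26 after 10 min, 1.96 after 30 min and 1.87 after 60 min. Fos on X03347cds_g_at stood at 3.10, 2.65 and 2.72 in that order, Bdnf on D10938exon_s_at at 3.12, 2.68 and 2.90, Nr4a1 on U17254_g_at at 2.76, 2.22 and 2.44, and Igf1 at 1.89, 1.99 and 1.57. For Fos the 30 min value was lower than the 10 min value by 0.45 on the log2 scale, with an interval of the difference from -1.07 to 0.17. Over the 20 the differences ran from -0.55 to 0.37 against 10 min and from -0.42 to 0.53 against 60 min. A gap of 1 log2 unit or more in either direction lies outside the interval for Il6r against 60 min (-0.59 to 0.54), but not for Bdnf on D10938exon_s_at against 10 min (-1.23 to 0.33).

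**Figure D4:**
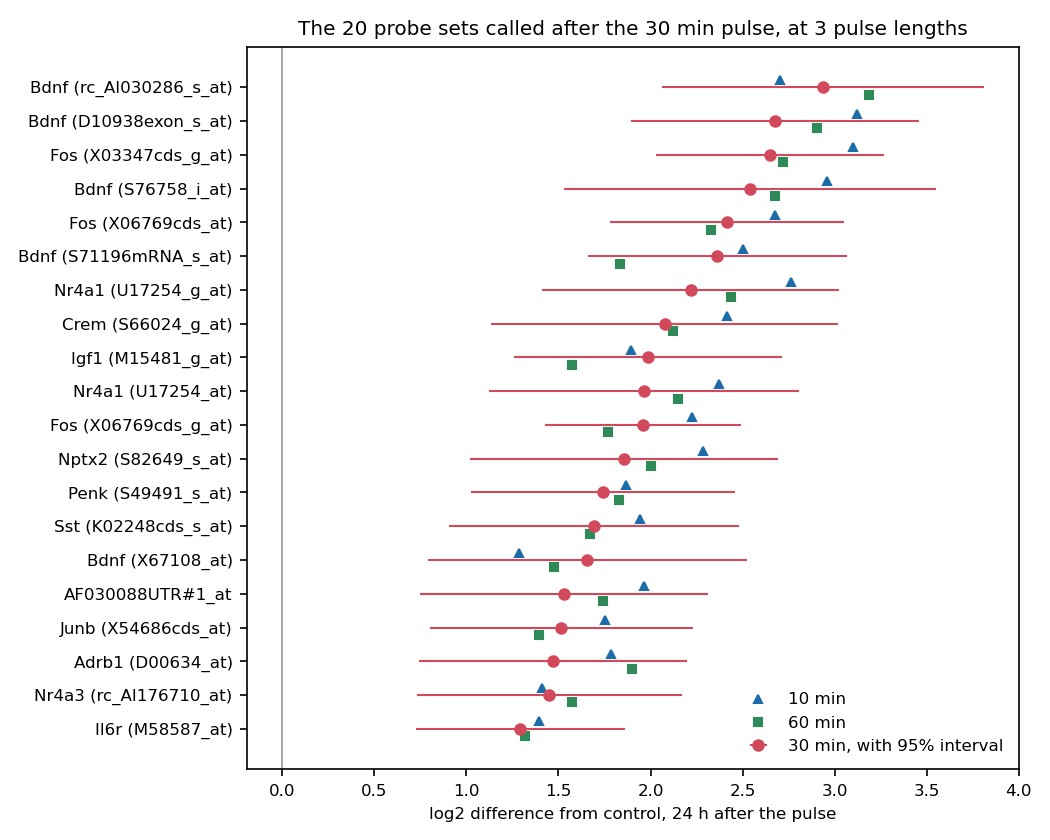
Log2 difference from control for the 20 probe sets that passed after the 30 min pulse (circles, with limma's 95% intervals), beside the values after 10 min (triangles) and 60 min (squares) from the same cultures and against the same controls. The 30 min values run from 1.29 to 2.94, and the 10 and 60 min values of all 20 are 1.29 or more.

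The washed-out experiment gave the same 30 min pulse and 24 h recovery to a separate set of samples, 5 against 5, and its samples were hybridized in a pair of runs. In the first run 123 of 884 probe sets passed (13.9%), 97 of them higher (11%). The repeat run was made, per the labels, after an oven failure, and which arrays that affected is not clear. In it 2 passed (0.226%, with 157 at an unadjusted p under 0.05 in limma), Nr4a3 at 2.29 and the glucose transporter Slc2a3 at 1.08. Controls 3 and 4 of the repeat run stood apart, with median correlations of -0.02 and 0.51 with the rest, and without them 16 passed (1.81%). Of the 20 probe sets, 19 could be tested in the first run: all 19 were higher and 12 passed, against 544 of 847 probe sets higher in all. In the repeat run 18 of 18 were higher, against 441 of 812, and 1 of them passed (Nr4a3). Under quantile normalization Fos on X06769cds_g_at stood at -0.13 there. The median was 1.12 over the 19 tested in the first run and 0.78 over the 18 tested in the repeat run. Without the controls that stand apart all 20 could be tested in the repeat run, with a median of 1.13, and 4 of them passed.

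Values of single genes are given from the first run, where more of the 20 probe sets passed than in the repeat run. That choice favours agreement with the 20, and the repeat run was the main fit of this experiment. In the repeat run the 18 tested ran from 0.09 to 2.29 with a median of 0.78, and 1 passed. In the joint fit below, the pulse effect minus the repeat-run effect was 2.10 for Bdnf on D10938exon_s_at, 0.94 for Junb and 0.61 for Crem. For Nr4a3 it was -0.84, and none of these differences passed. In the first run Igf1 rose by 2.04 (SE 0.58, limma adjusted p = 0.0259), Crem by 1.80 (SE 0.33, adjusted p = 0.0025), Bdnf on D10938exon_s_at by 1.68 (SE 0.31, adjusted p = 0.0025) and Nr4a3 by 1.17 (SE 0.17, adjusted p = 0.000942). Fos on X03347cds_g_at rose by 1.13 (SE 0.32, adjusted p = 0.0230) and Junb by 0.92 (SE 0.25, adjusted p = 0.0207). Penk stood at 0.43 (adjusted p = 0.149), Adrb1 at 0.23 (adjusted p = 0.661) and Il6r at 0.17 (adjusted p = 0.392), and these did not pass.

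The difference between the experiments was tested in a joint fit. Set against the repeat run, 0 of 812 probe sets differed (62 at an unadjusted p under 0.05 in limma), and Bdnf on rc_AI030286_s_at had the smallest p, at 2.46 (95% interval 1.28 to 3.65, adjusted p = 0.149). Fos on X03347cds_g_at followed at 1.95 (95% interval 0.95 to 2.95, adjusted p = 0.157). Set against the first run, Il6r differed, at 1.12 (95% interval 0.65 to 1.59, adjusted p = 0.0285), the 1 probe set of 847 that passed (0.118%). Without all arrays that stand apart, Ckb, a creatine kinase, and Grm7 differed from the repeat run, at 1.08 and -1.56 (adjusted p = 0.0231 and 0.0341). The interval for Igf1 against the first run was -1.59 to 1.48.

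Cultures harvested after 30 min in NMDA, with no recovery, give the state at the time when the pulse was washed off, although in other samples (3 against 3). None of 884 probe sets passed there in limma (16 had an unadjusted p under 0.05). The values of the activity-induced transcription factors were spread widely around a median of 1.14. Fos stood at 2.38 (SE 0.71, adjusted p = 0.461) on X03347cds_g_at, Junb at 2.14 (SE 0.82), Egr1 at 2.09 (SE 0.45, adjusted p = 0.0686) on AF023087_s_at, Nr4a1 at 1.44 (SE 0.67) on U17254_g_at and Jun at 0.83 (SE 0.66). Nr4a3 on rc_AI176710_at, Crem and Fosl2 were at 0.03, -0.12 and -0.98. The values of Bdnf on D10938exon_s_at, Igf1, Nptx2 and Penk were 0.36, -0.05, -0.40 and 0.02. The effect after 24 h was larger than the effect at 30 min for 2 of 848 probe sets (0.236%) in a test of the difference. Bdnf on S71196mRNA_s_at differed by 3.53 (95% interval 2.14 to 4.92, limma adjusted p = 0.0140), from effects of 2.36 after 24 h and -1.16 at 30 min. Its probe sets rc_AI030286_s_at and D10938exon_s_at differed by 2.62 and 2.31 and did not pass (adjusted p = 0.189 and 0.53). Nptx2 differed by 2.26 (95% interval 1.23 to 3.29, adjusted p = 0.0490), and its call was lost without the culture block, without a filter on dim probe sets, under quantile normalization and with any 1 of the 4 pulsed arrays left out. For Fos on X03347cds_g_at the difference was 0.27 (95% interval -1.33 to 1.87) and for Junb -0.63 (95% interval -2.49 to 1.24), so neither direction was resolved.

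A second pulse set held 1 array with the 30 min pulse and 1 control, which allows no test. All 20 probe sets were higher in its pulsed array, with a median of 2.28, while 399 of all 884 were higher with a median of -0.06. Fos read 918 and 7354, Igf1 78.0 and 983, Bdnf on D10938exon_s_at 485 and 2511, and Il6r 52.5 and 814. The pulsed RNA of culture 3 had also been hybridized again: this array correlated at 0.94 with the first, and the 20 probe sets had a median of 1.83 over the control of culture 3, beside 1.91 on the first array.

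**Figure D5:**
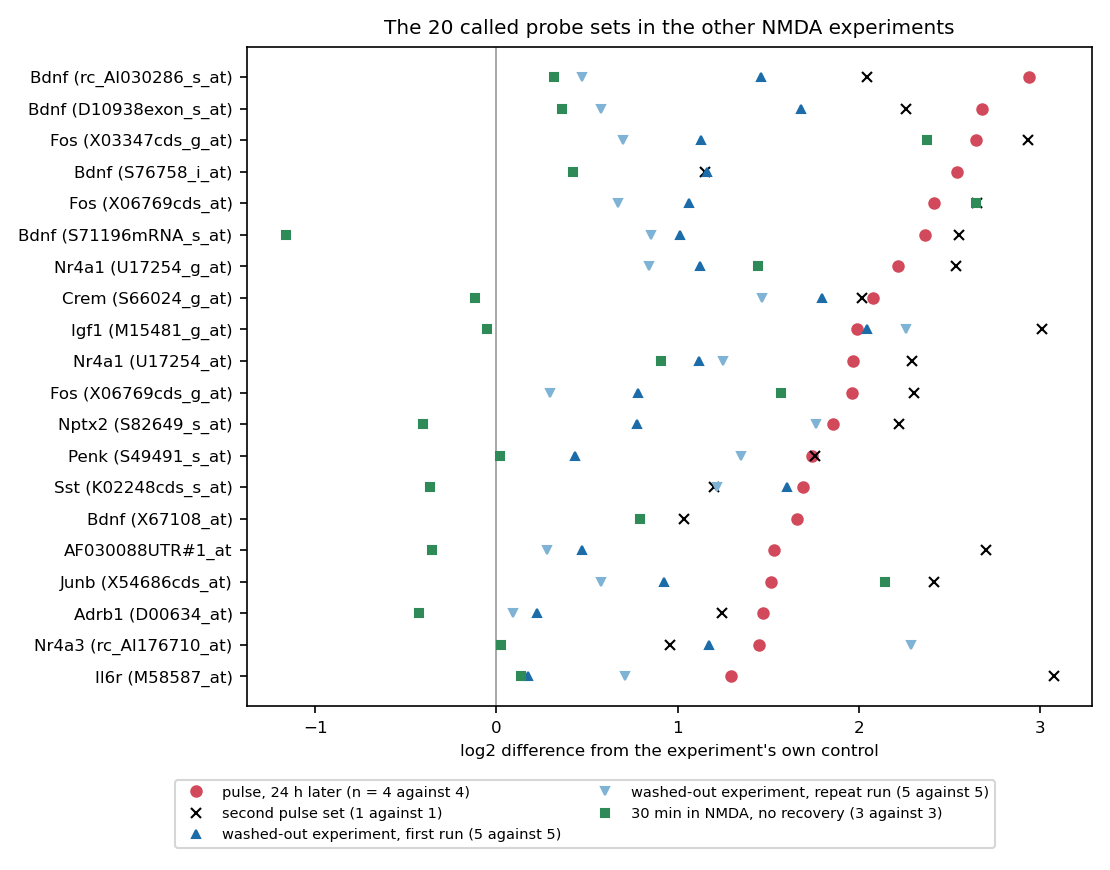
Log2 difference from the own control of each experiment for the 20 probe sets that passed after the 30 min pulse. Circles are the pulse experiment, crosses the second pulse set, up and down triangles the first and repeat runs of the washed-out experiment and squares the cultures still in NMDA after 30 min; a missing triangle was too dim to test. Crosses and triangles all lie above 0, and squares run from -1.16 to 2.64.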

How the data were processed

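RNA of primary rat cortical neurons was measured on Affymetrix arrays. The deposited values were read as linear intensities per probe set, already scaled to a common trimmed mean by the authors (checked on the values); their software is not given in the sources used. Gene names came from the platform annotation: 1137 of 1263 probe sets had 1 gene, 8 had several and 118 had none, and genes were named only from the first kind. Symbols were looked up again through Entrez IDs in RefSeq.

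Before log2 transformation, 63.1 was added to each value; this is the 10th percentile of values above 0 in the run. Probe sets with a mean below the 30th percentile were left out. The 16 arrays of the pulse experiment (control and 10, 30 and 60 min pulses, 4 each) were fitted together with limma 3.58.1 in R 4.3.3, with culture as a block and an intensity trend. P-values are 2-sided and adjusted by the Benjamini-Hochberg method over all probe sets of a contrast, with a threshold of 0.05; SEs and 95% intervals are limma's. Samples were grouped by their titles and descriptions. Arrays were paired by culture label because the comparison was defined that way. The deviations of same-labelled control and pulsed arrays correlated at 0.31 to 0.47, against -0.29 to 0.02 for other pairs. The washed-out and continuous experiments were fitted in their own runs, and differences between experiments in joint fits. An array stood apart where its median correlation lay over 3 scaled median absolute deviations below that of its run. The scripts were tested on simulated data.

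Named are up to 20 probe sets a direction, by size, among those that passed with 1 sign in 4 cultures. Also named are other probe sets of their genes, list members that passed and the genes of the NMDA receptor list. For other contrasts these are up to 10 that passed or the 5 with the smallest p. Other names, such as members of lists that did not pass, were chosen after their values were seen. The members, the 25 gene lists and the rules were chosen with earlier results of these data known. Within a list each gene stands by its brightest probe set. Promoter sequences are RefSeq's on GRCr8. Alternatives were other offsets, filters, normalizations and variance models, the culture block, the arrays entered and leaving out single arrays. Figures were drawn with matplotlib 3.10.9.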

Additional observations from a re-analysis of the deposited data

Results flagged for a closer look

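Among 70 groups of 4 arrays (the named probe sets in controls and in pulsed cultures), 4 held an array far from the other 3 by Dixon's test on the log2 scale, where chance gives about 1 in 20. On Bdnf S71196mRNA_s_at the control of culture 3 read 106.8, against 302.4 to 328.7 in the other controls. The control of culture 2 read 49.99 on the unnamed AF030088UTR#1_at, against 359.6 to 375.5. Igf1 on M15481_at, which did not differ between groups, had a control of 623.4 in culture 1 against 336 to 353.4, and a pulsed array of 1311 in culture 3 against 327.5 to 386.2.

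The effect of the pulse after 24 h differed from the effect of 30 min in NMDA without recovery for 2 probe sets by a test of the difference. These were Bdnf on S71196mRNA_s_at, at 3.527 (95% interval 2.139 to 4.915), and Nptx2 on S82649_s_at, at 2.261 (95% interval 1.228 to 3.293). The call of Nptx2 was lost without the culture block, without a filter, under quantile normalization and with any 1 pulsed array left out. On both probe sets the pulsed arrays were higher than their controls in 4 of 4 cultures.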

How the results depend on the processing

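The differences of the 20 probe sets that passed kept their sign in all 439 values over 22 alternatives, and 330 of these kept the call. In all alternatives that tested them, 7 probe sets kept it: 3 of Bdnf, 3 of Fos and M15481_g_at of Igf1. The count of 20 became 12 without the replicate block, 35 (28 higher, 7 lower) with only the 8 arrays compared, 43 without the arrays that stand apart and 7 when all 4 arrays of culture 1 were left out. It was 17 when the array with the conflicting label was counted with the 60 min group, 8 when it was left out, and 8 to 16 over all arrays left out in turn. An alternative added after seeing the data, without both the replicate block and the arrays that stand apart, gave 15. Other offsets, filters, scalings and variance models gave 17 to 21. In the washed-out experiment the count of 2 became 123 in the first run, 9 with the replicate block, 1 without a filter, 0 under quantile normalization, 16 without the arrays that stand apart, and 0 to 18 with single arrays left out. The difference between the experiments went from 0 to 2 without the arrays that stand apart and to 1 with the first run. The difference from 30 min in NMDA went from 2 to 1 without the replicate block, without a filter, under quantile normalization and with any pulsed array left out (1 to 1). The paired analysis changed no count of the 30 min pulse against 10 or 60 min, which stayed at 0 in limma. The cause of these shifts was not tested.

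Values that changed sign were small and none of them passed on either side. With single arrays or culture 1 left out, Igf1 ranged from -0.21 to 0.57 on M15481_at and from -0.24 to 0.19 on X06107_r_at, Penk rc_AI009300_at from -0.70 to 0.37 and Bdnf S71201mRNA_at from -0.19 to 0.25. Grin1 ranged from -0.054 to 0.62, Grin2a from -0.75 to 0.59, Grin2b from -0.12 to 0.22, Grin3a from -0.67 to 0.28 and Grina from -0.21 to 0.064. In the washed-out repeat run Adrb1 ranged from -0.44 to 0.85 and AF030088UTR#1_at from -0.019 to 0.49. Under quantile normalization Bdnf S71201mRNA_at was at -0.0069, Igf1 X06107_r_at at 0.011, Grin3a at 0.056 and Fos X06769cds_g_at of the repeat run at -0.13. Under median centring Igf1 X06107_r_at was at 0.013 and Grin3a at 0.028. With the conflicting array counted at 60 min, Bdnf S71201mRNA_at was at -0.18, Igf1 X06107_r_at at 0.097 and Grin2b at -0.0067. Without culture 1, Igf1 X06107_r_at was at 0.19, Grin2b at -0.052 and Grin3a at 0.17. With the repeat array averaged in, Grin2b was at -0.041. At the lower offset Grin3a was at 0.026, and without the arrays that stand apart at 0.00091, with or without the replicate block.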

Other observations

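Some further genes passed in the fit without the pair of arrays that stand apart. Cited2, a transcriptional coregulator, was at 1.43 (limma adjusted p = 0.0087), with controls of 1893, 1140, 1104 and 549 and pulsed arrays of 5904, 4443, 1088 and 2760, so that culture 3 did not follow the other 3. Cebpb, a leucine zipper transcription factor, was at 0.92 on X60769mRNA_at and higher in 3 of 4 cultures, while its other probe set, at 1.12, did not pass (adjusted p = 0.0785). Kcnf1, a modifying subunit of potassium channels, was at 0.98 and higher in 4 of 4. Tubb5, a beta tubulin, was lower in 4 of 4 cultures on all 4 of its tested probe sets. The values on rc_AI229707_s_at and AB011679_at, -0.90 and -0.74, passed (adjusted p = 0.00115 and 0.020), and those on its brighter probe sets rc_AA860030_s_at and rc_AA943532_s_at, -0.43 and -0.44, did not (adjusted p = 0.0626 and 0.154). None of these passed with all 16 arrays.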
